A study of Mus musculus with 4 samples.

Results

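The 32 genes described here encode the protein folding machinery of the endoplasmic reticulum (ER) and the pathways that answer its overload. They were chosen with earlier results of these data known and were looked up by symbol. All 32 were found among the 24468 genes of the table of kidney cell clusters. The proximal tubule table lists 31 of them among 21312 genes, all but Trib3. The ER is where secreted and membrane proteins are folded, and the proximal tubule, which reabsorbs filtered protein and carries many transporters, depends on it. When unfolded protein accumulates, the sensors ATF6, IRE1 (gene Ern1) and PERK (gene Eif2ak3) start the unfolded protein response. ATF6 and the spliced XBP1 factor raise chaperone and degradation genes, while PERK slows translation and favours the factors ATF4 and CHOP (gene Ddit3). Several target promoters carry the ER stress element, a pair of short boxes read by the factor NF-Y together with ATF6 or XBP1.

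The study profiled nuclear RNA, nucleus by nucleus, in kidneys of male C57BL/6 mice, an inbred laboratory strain. The tissue was cortex with outer medulla. The CT9w group was untreated and the Cis9w group received repeated low-dose cisplatin (RLDC), a platinum anticancer drug toxic to the tubule, as 4 weekly injections of 8 mg/kg. Cis9w kidneys were collected at 9 weeks, counted from the start of dosing, and each group had 2 samples, 4 in all. The sources used here do not give the ages of the mice or the number of kidneys per sample. Nor do they say if the proximal tubule table holds 1 or both libraries of a group. The tables give averages over pooled nuclei, so each value below is that of 1 pool or 1 cluster and no spread between animals can be given.

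In the proximal tubule table CT9w stands on 5123727 UMIs (unique molecular identifiers, 1 per captured RNA molecule) and Cis9w on 8557662. The cluster table covered 36068714 UMIs in 17 clusters of both groups together. UMIs in the proximal tubule table came to 57.6% of those in the 6 proximal tubule clusters there. Which nuclei were left out is not given. The smallest cluster, mixed-2, held 254460 and the largest, PT-S2/S3, held 7425098. Marker genes of proximal tubule summed to 34.3 (CT9w) and 31.3 (Cis9w) normalised UMIs per nucleus. The injured-tubule markers summed to 0.374 and 1.47, and by the p-value of the authors' deposited table (threshold 0.05) 7 of 12 were higher. Krt20, Lcn2, Ccl2 and Sox9 of that list had 0 UMIs in CT9w. Markers of the third tubule segment fell from 11.7 to 4.76, with 5 of 8 lower at that threshold, and first-segment markers stood at 9.756 and 12.01. The 8 mitochondrially encoded genes, a sign of free RNA in nuclei, summed to 2.21 in CT9w and 1.49 in Cis9w. Summed markers of intercalated cells (2.37 times CT9w), principal cells (2.04 times) and fibroblasts (1.81 times) were at most 0.130 in either pool, and distal tubule markers stood at 1.42 and 2.03. The part of these shifts in the values below was not tested, and in pools fewer cells of a type and less RNA per cell cannot be told apart.

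Of the 32 genes, 28 had a promoter sequence in RefSeq (build GRCm38.p6, from 250 bases before to 50 after the annotated start). The ER stress element, searched as CCAAT, 9 bases of any kind and CCACG on both strands, was present in 9 of these 28 (32.1%), against 37 of all 27025 genes with a window (0.137%). ER stress element II, searched as ATTGG, 1 base of any kind and CCACG, was present in 2 of 28 (7.14%), against 12 of 27025 genes (0.0444%). These 11 genes are Hspa5, Hsp90b1, Calr, Canx, Pdia6, Dnajc3, Creld2, Syvn1 and Derl3 for the first and Herpud1 and Dnajb11 for the second. No gene held both, though the motifs can overlap in their letters. The XBP1 motif TGACGTGG and the amino acid response motif TGATGCAAT were in none of the 28 windows, and in 0.714% and 0.222% of all genes. The set was chosen to hold genes of the unfolded protein response, several of whose targets carry these elements. The higher shares among members therefore follow from that choice and are no test. A match is a run of letters and not a measured binding site.

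The stretches below are shown because 4 of the genes that rose after cisplatin carry an element there. Dnajc3 and Calr are added as genes with an element that did not pass the test. They read 5′ to 3′ on the gene's strand, and capitals mark the fixed letters of each match.
Hspa5: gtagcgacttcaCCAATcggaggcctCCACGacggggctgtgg
Hsp90b1: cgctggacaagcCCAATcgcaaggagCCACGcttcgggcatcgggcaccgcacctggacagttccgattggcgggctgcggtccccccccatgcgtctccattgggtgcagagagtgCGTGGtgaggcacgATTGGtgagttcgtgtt
Pdia6: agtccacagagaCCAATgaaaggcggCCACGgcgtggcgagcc
Herpud1: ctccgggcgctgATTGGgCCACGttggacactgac
Dnajc3: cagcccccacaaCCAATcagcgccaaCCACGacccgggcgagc
Calr: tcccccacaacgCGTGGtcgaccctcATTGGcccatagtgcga
The stretches lie at chr2:34772013-34772055 (+ strand, Hspa5), chr10:86705521-86705668 (- strand, Hsp90b1), chr12:17266479-17266521 (+ strand, Pdia6) and chr8:94386365-94386399 (+ strand, Herpud1). Those of Dnajc3 and Calr lie at chr14:118937815-118937857 (+ strand) and chr8:84847063-84847105 (- strand). Hsp90b1 was the only member with a pair of elements, the nearer of them in the reverse orientation, and Calr carried its element in reverse as well. In Hspa5 the element began 65 bases before the RefSeq start, and in Herpud1 element II began 52 bases before that gene's RefSeq start. The gene spans given further below come from another annotation, whose starts can differ. The Hspa5 span there starts at 34771970, so the stretch shown lies inside it. Dnajb11 had its match after the start, at bases 8 to 18.

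**Figure D1:**
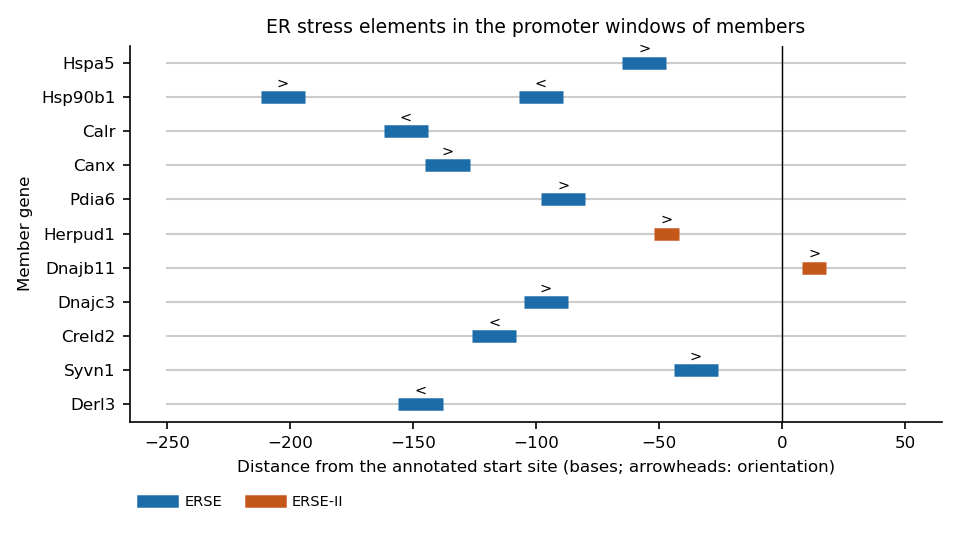
Positions of ER stress elements in the promoter windows of the 11 members that hold one, as distance in bases from the annotated start (x axis) for each gene (y axis); blue bars are ER stress element, orange bars element II, arrowheads give orientation and grey lines the window. All matches but that of Dnajb11 (8 to 18 bases after the start) lie before the RefSeq start.

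Comparing Cis9w with CT9w asks how proximal tubule nuclei differ weeks after the last dose. Of the 31 genes listed, 7 rose, none fell and 24 did not pass by the p-value of the authors' deposited table, with a threshold of 0.05. The 7 were Hspa5, Hsp90b1, Hyou1 and Manf among the chaperones, Pdia4 and Pdia6 among the disulfide isomerases, and Herpud1 of ER-associated degradation. Over all 21312 genes 0.995% were higher and 1.14% lower by the same rule. At the expression floor, a mean of both averages of at least 0.0154 normalised UMIs per nucleus (the median over genes), 26 of the 31 remained, and 1.51% of the 10656 genes there were higher and 1.78% lower. The sources used here do not name the test behind the deposited p-values, and no comparison of animals is read from them.

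A ratio of averages of at least 1.5 was found for 15 of the 31, against 13.5% of all genes and 7.36% of genes at the floor. A ratio of 1/1.5 or less was found for Asns (3 UMIs in each pool) and Chac1 (1 UMI in CT9w, 0 in Cis9w), against 26.1% of all genes and 5.32% at the floor, and both of these rest on counts at or under 3 UMIs. The 95% interval of the ratio (Clopper-Pearson on the UMI sums, counting error only) lay above 1 for 17 genes and held 1 for 14. It lay above 1 for 12.4% of all genes and 19.6% of those at the floor, and below 1 for none of the 31 and 9.58% of all genes. In the authors' deposited table the median log2 fold change was 0.60 over the 31 and 0.64 over the 26 at the floor, against 0.04 and 0.03 over all genes. Derl3 and Chac1 had 0 UMIs in a pool. With each of their counts under 3 UMIs raised to 3, which puts Chac1 at 3 in both pools, the median over 31 was 0.53. Summed over the 31 genes, 5968 UMIs in CT9w and 15235 in Cis9w gave a ratio of averages of 1.53 (interval 1.48 to 1.58). Their share of all UMIs was 0.117% in CT9w and 0.178% in Cis9w.

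**Figure D2:**
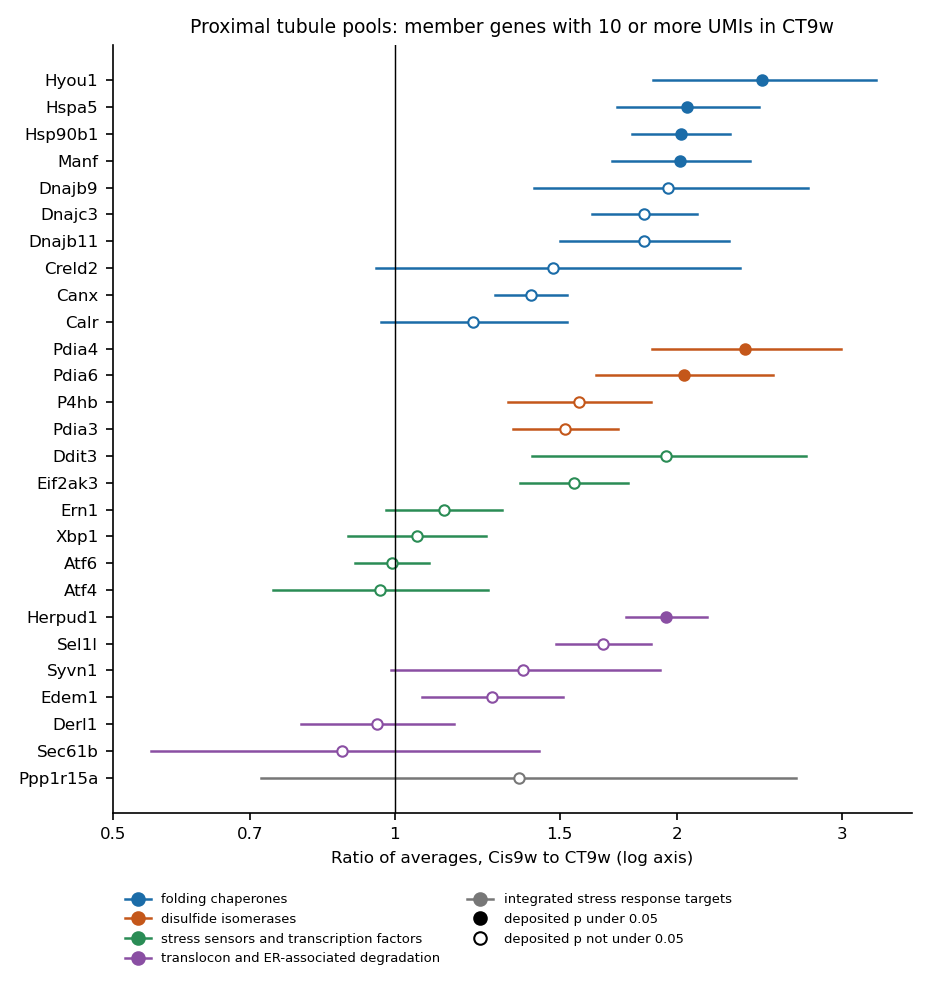
Ratio of averages in the Cis9w to the CT9w proximal tubule pool (x axis, log scale) for members with at least 10 UMIs in CT9w (y axis), with 95% counting intervals as lines; colours give the role, and filled points passed the 0.05 threshold on the p-value of the authors' deposited table. Chaperones and isomerases lie to the right of 1, up to 2.47 for Hyou1, while Xbp1, Atf6, Atf4, Derl1 and Sec61b lie between 0.879 and 1.06.

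Folding chaperones formed the largest group of rises, with 4 of 11 higher by that rule and 7 with a ratio of at least 1.5. Hspa5 encodes BiP, the ER's HSP70 chaperone, which also holds the stress sensors inactive. It had 171 UMIs in CT9w and 586 in Cis9w, averages of 0.0934 and 0.192 normalised UMIs per nucleus. The ratio was 2.05 (1.73 to 2.45), and p was 0.0252 per the authors' deposited table. Hsp90b1, the gene of the ER's HSP90 chaperone GRP94, had 352 and 1188 UMIs, averages of 0.192 and 0.388. Its ratio was 2.02 (1.79 to 2.28), and p was 0.0183 per the authors' deposited table. These genes lie at 34771970 to 34777547 on chromosome 2 and 86690209 to 86705509 on chromosome 10 of GRCm38.

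Hyou1, which encodes a large HSP70-related nucleotide exchange factor for BiP, had the highest ratio among the 26 members at the floor. Its 68 UMIs in CT9w and 280 in Cis9w gave averages of 0.0371 and 0.0915, a ratio of 2.47 (1.89 to 3.26), and p was 0.00657 per the authors' deposited table. Manf encodes a secreted neurotrophic factor that binds BiP, and had 179 and 603 UMIs, averages of 0.0977 and 0.197. Its ratio was 2.02 (1.70 to 2.40), and p was 0.0288 per the authors' deposited table. Hyou1 spans 44379490 to 44392369 and Manf 106838312 to 106891979 on chromosome 9. The Manf span overlaps 4 other annotated genes, 1 of them (Rbm15b) on its own strand, so some of its UMIs may belong to another gene.

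The ER co-chaperones of the DNAJ family did not pass, with ratios of 1.96 (1.41 to 2.77) for Dnajb9, 1.84 (1.502 to 2.28) for Dnajb11 and 1.85 (1.62 to 2.11) for Dnajc3. Their p-values in the authors' deposited table were 0.188, 0.123 and 0.0665, and all 3 counting intervals lay above 1. The lectin chaperones that hold glycoproteins in their folding cycle had lower ratios. Canx (calnexin) had 700 and 1633 UMIs, a ratio of 1.40 (1.28 to 1.53), and Calr (calreticulin) had 116 and 235 UMIs, a ratio of 1.21 (0.967 to 1.53). Creld2 stood at 1.48 (0.954 to 2.34), from 30 and 74 UMIs. Sdf2l1, a partner of ER HSP70 complexes, had 3 UMIs in CT9w and 5 in Cis9w, too few at this depth to show a difference. Summed over the 11 chaperones the ratio was 1.74 (1.65 to 1.83).

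The 4 protein disulfide isomerases, which form and reshuffle disulfide bonds, all had ratios of at least 1.5, and 2 of the 4 rose. Pdia4 had 94 UMIs in CT9w and 371 in Cis9w, averages of 0.0513 and 0.121. Its ratio was 2.36 (1.88 to 2.996), and p was 0.00669 per the authors' deposited table. Pdia6 had 111 and 377 UMIs, averages of 0.0606 and 0.123, a ratio of 2.03 (1.64 to 2.54), and p was 0.0443 per the authors' deposited table. Pdia3 (ERp57, the partner of calnexin and calreticulin) at 1.52 (1.34 to 1.73) and P4hb (the founding isomerase PDI) at 1.57 (1.32 to 1.88) did not pass. Pdia4 lies at 47796141 to 47813430 on chromosome 6 and Pdia6 at 17266545 to 17284770 on chromosome 12. Over the 4 genes the summed ratio was 1.72 (1.58 to 1.88).

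None of the 6 sensors and transcription factors passed, and their summed ratio was 1.15 (1.08 to 1.22). Atf6 had 771 UMIs in CT9w and 1278 in Cis9w, averages of 0.421 and 0.418, a ratio of 0.992 (0.907 to 1.09). Xbp1 had 218 and 384 UMIs, averages of 0.119 and 0.126, a ratio of 1.06 (0.891 to 1.25). Splicing of Xbp1 RNA and cleavage of ATF6 protein, which activate these factors, are not measured by gene averages. Ern1, the gene of IRE1, had 302 and 569 UMIs, averages of 0.165 and 0.186, a ratio of 1.13 (0.979 to 1.30). Atf4, whose control is mainly translational, had 95 and 153 UMIs, averages of 0.0519 and 0.05001, a ratio of 0.964 (0.742 to 1.26).

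Within this group the counting intervals of Eif2ak3 and Ddit3 lay above 1. Eif2ak3, the gene of PERK, had 315 UMIs in CT9w and 817 in Cis9w, averages of 0.172 and 0.267, a ratio of 1.55 (1.36 to 1.77), and p was 0.416 per the authors' deposited table. Ddit3, which encodes CHOP, a factor tied to cell death in prolonged stress, had 48 and 156 UMIs, averages of 0.0262 and 0.0510. Its ratio was 1.95 (1.40 to 2.75), and p was 0.224 per the authors' deposited table. The Ddit3 span overlaps genes on the opposite strand, and the sources used here do not say whether the counting used strand. An opposite-strand gene also overlaps Hsp90b1, Pdia3, Pdia6, Herpud1, Manf, Eif2ak3, Dnajb9, Dnajb11, Syvn1 and Ppp1r15a.

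Among the 7 genes of the translocon and of ER-associated degradation (ERAD), which returns misfolded protein to the cytosol for the proteasome, only Herpud1 passed. Herpud1 encodes a membrane protein that organises the degradation complex, and spans 94386438 to 94395377 on chromosome 8. It had 513 UMIs in CT9w and 1671 in Cis9w, averages of 0.280 and 0.546. The ratio was 1.95 (1.77 to 2.16), and p was 0.0263 per the authors' deposited table. Sel1l, the adaptor of the HRD1 ubiquitin ligase, stood at 1.67 (1.49 to 1.88), and p was 0.196 per the authors' deposited table. Syvn1, the gene of HRD1 itself, stood at 1.37 (0.992 to 1.92), and the mannosidase-like Edem1 at 1.27 (1.07 to 1.51).

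Derl1, a channel component for proteins leaving the ER, had 185 UMIs (CT9w) and 296 (Cis9w), a ratio of 0.958 (0.795 to 1.16). Sec61b, a subunit of the translocon through which new proteins enter the ER, had 32 and 47 UMIs, a ratio of 0.879 (0.549 to 1.42). Derl3, of the same family as Derl1, had 0 UMIs in CT9w and 6 in Cis9w, and the lower end of its interval was 0.705. The group's summed ratio was 1.59 (1.497 to 1.70).

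Targets of the integrated stress response, the ATF4 branch, were hardly detected. Ppp1r15a, whose product GADD34 restores translation, had 15 UMIs (CT9w) and 34 (Cis9w), a ratio of 1.36 (0.720 to 2.68). The asparagine synthetase gene Asns had 3 UMIs in each pool, an average of 0.00164 in CT9w and 0.000981 in Cis9w. Chac1, a glutathione-degrading enzyme gene, had 1 and 0 UMIs. Together the 3 genes listed gave 19 and 37 UMIs, a ratio of 1.17 (0.654 to 2.15), so that no difference was detectable at this depth.

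Genes of the same pathways outside the set were taken from 7 lists. Of 26 other folding and disulfide genes listed, none was higher or lower by the 0.05 threshold on the p-value of the authors' deposited table, and the median log2 fold change at the floor was 0.17. None passed among 21 other ERAD genes (median 0.06), 27 translocon and glycosylation genes (0.10), 24 genes of ER to Golgi transport (0.10) and 28 cytosolic and mitochondrial chaperones (-0.01), all in the authors' deposited table. The medians of these lists stand beside 0.92 for the chaperones, 0.83 for the isomerases, 0.39 for the translocon and ERAD members and 0.12 for the sensors and factors, also from the authors' deposited table. Members, roles and lists were chosen with earlier results of these data known, so the contrast is no independent test.

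Each of the remaining lists held 1 rise, and neither passed a threshold of 0.01. Among 20 other regulators of the unfolded protein response it was Fam129a (also called Niban), with 41 UMIs (CT9w) and 170 (Cis9w), a ratio of 2.48 (1.76 to 3.58), and p was 0.0354 per the authors' deposited table. Among 37 other genes of the integrated stress response it was Slc3a2, the heavy chain of the CD98 amino acid transporters, with 89 and 340 UMIs, a ratio of 2.29 (1.81 to 2.92), and p was 0.0112 per the authors' deposited table. The medians of these lists at the floor were 0.02 and 0.10 in the authors' deposited table. A ratio of at least 1.5 was found for 4 of the 20 and 6 of the 37, against 13.5% of all genes. A ratio of 1/1.5 or less was found for 3 in each list, against 26.1% of all genes.

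**Figure D3:**
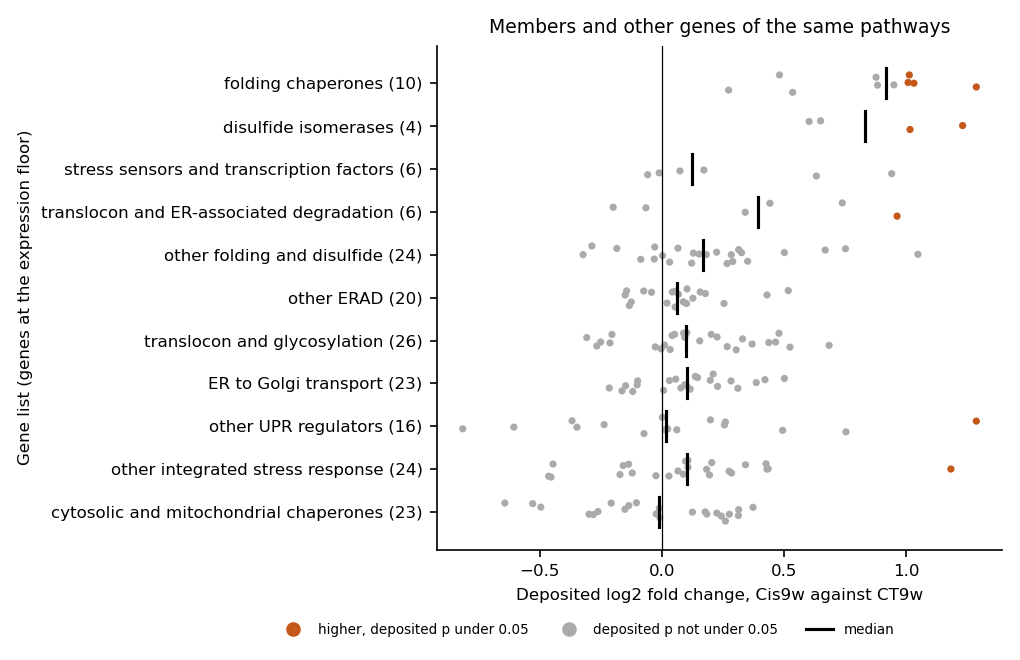
Log2 fold change of Cis9w against CT9w from the authors' deposited table (x axis) for each gene at the expression floor, by list (y axis, number of genes in brackets); black bars are medians and orange points passed the 0.05 threshold on its p-value. Chaperone and isomerase members have medians of 0.92 and 0.83, and the 7 lists of other genes have medians from -0.01 to 0.17. Members and lists were chosen with earlier results of these data known.

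Set against the promoter letters shown above, 5 of the 7 genes that rose had a RefSeq window and 4 of these 5 held an element, the exception being Pdia4. Of the 23 other members with a window, 7 held an element. Members with an element and at the floor had ratios from 1.21 to 2.05, with a median of 1.85 over 10 genes. Matched members at the floor without one ranged from 0.879 to 2.36, with a median of 1.54 over 12 genes. The 2 ranges overlap. Of the 38 genes outside the set whose window held an element, 22 were listed and 12 reached the floor, where the median ratio was 1.07. By the authors' deposited p under 0.05 none of these was higher and 1, Spats2l, was lower.

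The cluster table shows where in the kidney the genes are expressed, with nuclei of both groups pooled. Its averages were scaled separately from those above and are not compared with them. For PT-injury/repair the upper header line gives this name and the lower one a cluster number, and the name was used. The marker lists of thick ascending limb, distal tubule, principal, intercalated, podocyte, endothelial and immune cells were highest in the clusters of those names. Injured-tubule markers summed to 6.202 in PT-injury/repair and to 0.612 or less in each of the remaining 5 proximal tubule clusters. Of the 32 genes, 27 were detected in all 17 clusters, and Sdf2l1, Trib3, Asns, Chac1 and Derl3 were at 0 UMIs in 5 to 12 of them. For members at the floor the highest cluster was a median of 1.85 times the gene's middle cluster, against 2.30 over all 12226 genes at the floor of this table (a mean average of at least 0.0107).

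Members made up between 0.108% of UMIs in DCT+CNT (distal convoluted and connecting tubule) and 0.230% in Immune cells. PT-S1 stood at 0.167%, PT-S2 at 0.166% and PT-injury/repair at 0.134%. The ratio of PT-S1 to DCT+CNT was 1.55 (1.48 to 1.62) and that of PT-injury/repair to PT-S1 was 0.801 (0.764 to 0.840). DCT+CNT was the lowest cluster for 7 members and PC (principal cells) for 5. The shares of all genes lowest in these clusters were not computed, so the counts are not read as a trait of the members.

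**Figure D4:**
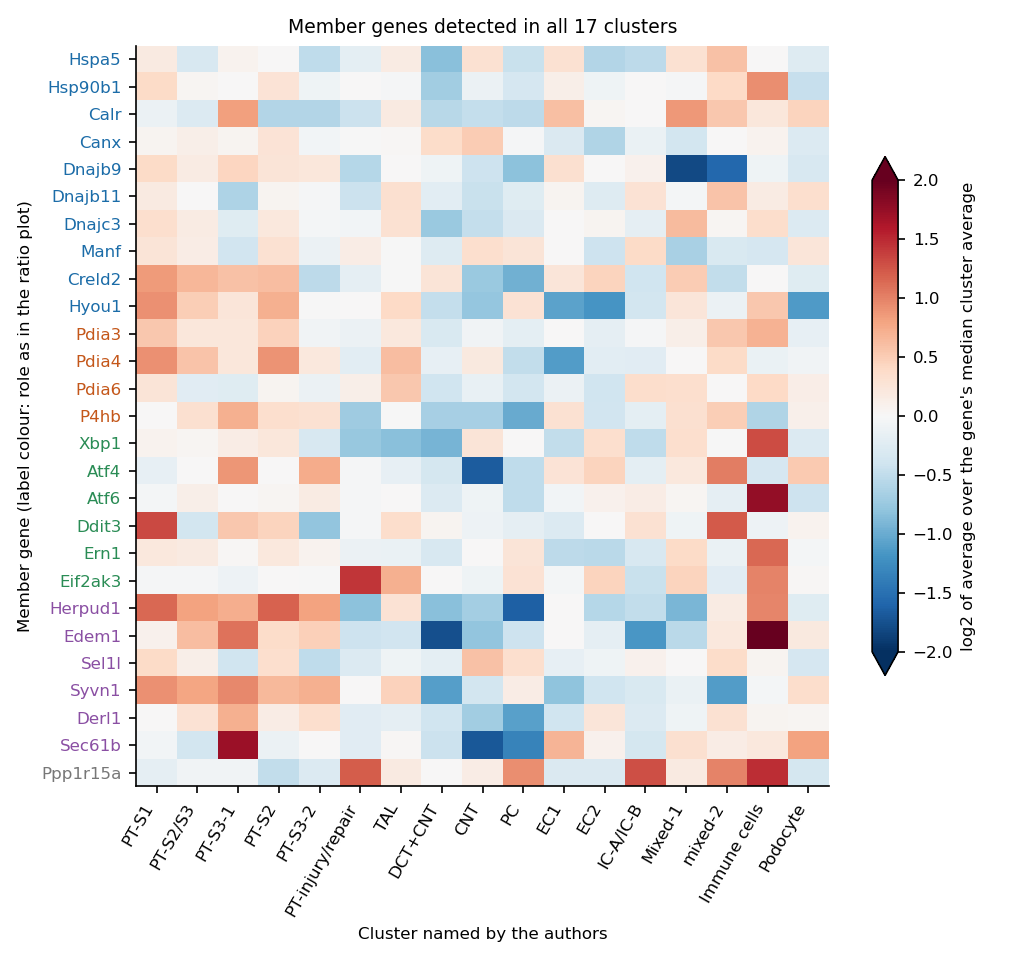
Log2 of each member's average over its median cluster average (colour scale, limited to -2 and 2) for the 27 members detected in all 17 clusters (y axis, label colours give roles as in the ratio plot), by cluster as named in the upper header line of the table (x axis). Atf6, Edem1, Xbp1 and Ern1 are highest in Immune cells, Eif2ak3 in PT-injury/repair and Herpud1 in PT-S2 and PT-S1.

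Of 544 pairs of member and cluster, 4 were higher and 1 was lower by the authors' deposited table, with a p threshold of 0.05 and a log2 fold change of at least 1 in size. Over all genes 3.02% of pairs were higher and 3.1% lower by that rule, so the members' counts lay under the background. The clusters were built from the same nuclei, so these p-values are no independent test. Ddit3 was higher in PT-S1 (log2 fold change 1.34 and p 0.00032 per the authors' deposited table), where 2.3% of all genes were higher by that rule. Its average was 0.0589 there, from 159 UMIs, and between 0.0137 (PT-S3-2) and 0.0346 (PT-S3-1) in the other 5 proximal tubule clusters. The PT-S1 average was 4.29 times that of PT-S3-2 (2.80 to 6.83), the widest of the 6 sensors and factors in the proximal tubule by this measure.

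Eif2ak3 and Asns were higher in PT-injury/repair, where 4.61% of all genes were. Eif2ak3 averaged 0.397 normalised UMIs per nucleus there, from 325 UMIs, and 0.138 to 0.148 in the other 5 proximal tubule clusters. The authors' deposited table gives it a log2 fold change of 1.37 and a p of 0.0354. Asns averaged 0.0122 there from 10 UMIs (log2 fold change 3.18 and p 0.018 per the authors' deposited table), with 7 UMIs in the other 5 proximal tubule clusters together. Trib3, a pseudokinase gene induced by ATF4 and CHOP, was higher in the endothelial cluster EC1 on 4 UMIs of 11 in all, where 3.39% of genes were higher. Edem1 was lower in DCT+CNT, with an average of 0.0203 (log2 fold change -2.01 per the authors' deposited table), where 5.44% of genes were lower.

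Proximal tubule markers summed to 4.11 in PT-injury/repair and to 19.1 to 26.9 in the other 5 proximal tubule clusters, and parietal epithelial markers to 4.81 and to 1.58 to 2.08. The part of these differences in the members' levels there was not tested. Against the other 5 proximal tubule clusters together, the counting interval of the ratio lay below 1 for 12 members, above 1 for 4 and held 1 for 16. The share of all genes with such intervals was not computed, so these counts have no background beside them. The 4 above were Eif2ak3 at 2.72 (2.41 to 3.07), Ppp1r15a at 2.65 (1.42 to 4.66), Asns at 19.2 (6.601 to 59.5) and Trib3, with 2 UMIs against 0. Over the 26 members at the floor the median ratio was 0.753, with 1 of at least 1.5 and 8 of 1/1.5 or less. Over all 12226 genes at the floor the median was 1.13, with 31.3% and 17.7% past those folds.

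Herpud1 had the lowest of these ratios among members detected in every cluster. It averaged 0.0965 in PT-injury/repair and between 0.281 (PT-S3-1) and 0.384 (PT-S2) in the other 5, a ratio to the 5 together of 0.290 (0.229 to 0.363). P4hb (0.502), Edem1 (0.542), Pdia4 (0.545), Dnajb9 (0.562) and Xbp1 (0.572) followed among members with intervals below 1. Hspa5 at 0.951 (0.752 to 1.19), Hsp90b1 at 0.905 (0.771 to 1.06), Manf at 1.01 (0.802 to 1.25) and Pdia6 at 1.10 (0.838 to 1.43) had intervals that held 1.

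The 7 genes that rose after cisplatin can be placed beside these cluster levels. In PT-injury/repair they stood at 0.290 (Herpud1) to 1.10 (Pdia6) times the other 5 clusters. PT-S1 was the highest proximal tubule cluster for 5 of the 7 and for 12 of all 32 members. The share of all genes highest there among these clusters was not computed. For Hspa5 the 6 proximal tubule clusters ran from 0.0813 in PT-S3-2 to 0.131 in PT-S1, and for Hyou1 from 0.0340 in PT-S3-2 to 0.0645 in PT-S1. The ratio of the highest to the lowest proximal tubule cluster was 1.61 for Hspa5, 1.39 for Hsp90b1, 1.89 for Hyou1, 2.18 for Pdia4 and 3.99 for Herpud1. Over all 26 members at the floor of the proximal tubule table the ratio between the pools was above this cluster ratio for 9. These 9 include 6 of the 7, which were picked on the comparison of the pools, and 3 of the other 19. The share of all genes for which this holds was not computed, so these counts are not read as a trait of the members. The cluster averages mix nuclei of both groups and rest on more proximal tubule UMIs than the pools, so the 2 tables do not hold the same nuclei.

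**Figure D5:**
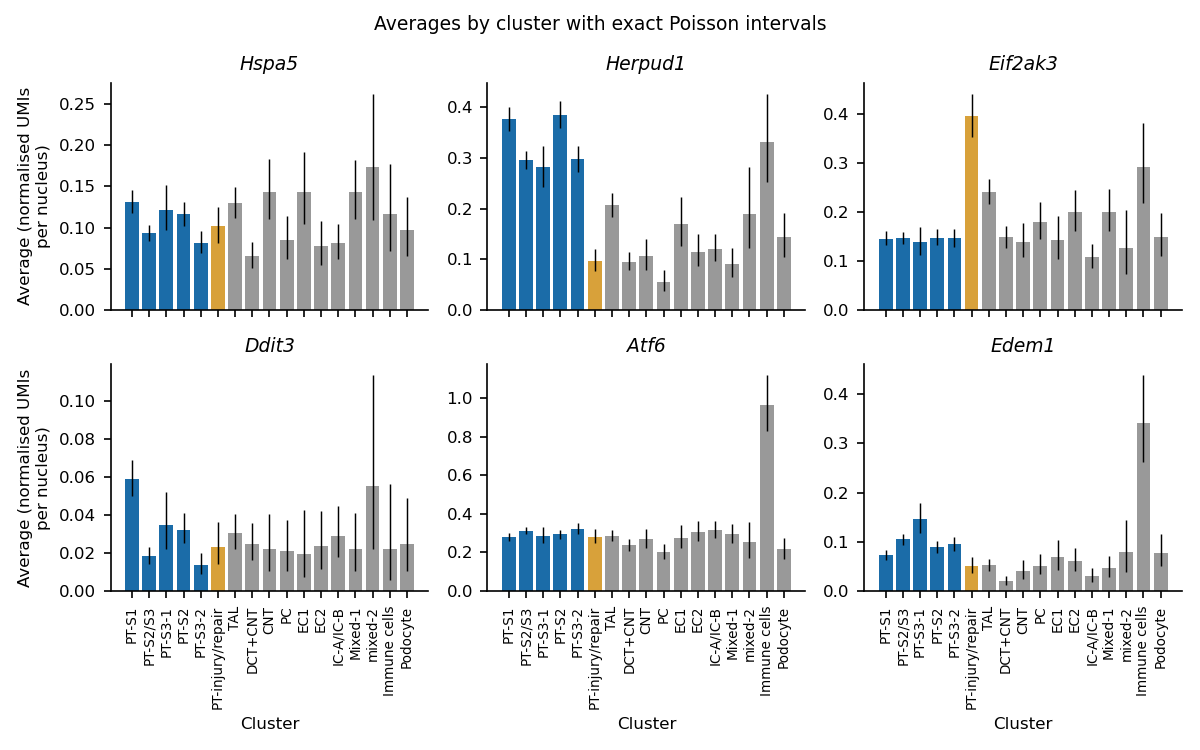
Average in normalised UMIs per nucleus (y axis, from 0) of 6 members in the 17 clusters (x axis), with exact Poisson intervals of the UMI sums as lines; blue bars are the 5 other proximal tubule clusters, the yellow bar PT-injury/repair and grey bars the rest. Eif2ak3 stands at 0.397 in PT-injury/repair where Herpud1 is at 0.0965, and Atf6 (0.967) and Edem1 (0.343) are highest in Immune cells.

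Immune cells were the highest cluster for 9 members, of which Chac1, Derl3 and Ppp1r15a rest on 1, 2 and 4 UMIs there. Of the 26 members at the floor of this table it was the highest for 6, against 16.67% of all genes at that floor. For 4 of these 6 it stood beyond counting error against the next cluster, a share that was not computed over all genes. Immune cells held 363369 UMIs. Atf6 averaged 0.967 there from 175 UMIs, against 0.203 (PC) to 0.323 (PT-S3-2) in the other 16 clusters, 2.99 times the next (2.51 to 3.55). Edem1 averaged 0.343 and was 2.35 times the next cluster (1.68 to 3.26), Xbp1 0.216 and 1.96 times (1.26 to 3.04), and Ern1 0.271 and 1.71 times (1.16 to 2.49). None of the 4 passed in that cluster, with p-values of 0.25 for Atf6, 0.114 for Edem1, 0.58 for Xbp1 and 0.776 for Ern1 in the authors' deposited table. The only other member whose highest cluster stood beyond counting error of the next was Eif2ak3, at 1.36 times Immune cells (1.01 to 1.85).

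Plasma cells are known for a high secretory load, and their markers were looked up in the Immune cells cluster. Igkc had 34 UMIs, Ighm 39, Jchain 23 and Prdm1 17, while Sdc1 had 2 and Mzb1 and Tnfrsf17 had 0. The macrophage and dendritic cell markers summed to 7.27 there, T and B lymphocyte markers to 2.06 and plasma cell markers, Xbp1 among them, to 0.851. The part of plasma cells in the levels of the 4 genes was not tested. The members' share of UMIs in Immune cells was 1.38 times that in PT-S1 (1.28 to 1.48), and 1.19 times (1.10 to 1.29) without Atf6.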

How the data were processed

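Nuclei from 4 kidney samples, 2 per group, were captured in droplets and given 3' libraries, per the labels' protocols. The submitters' processing notes name mm10 as the mouse build and Cell Ranger 5.0.1 as a tool. How nuclei were filtered and clustered, how doublets and free RNA were treated, whether strand was used and which test gave the p-values the sources used here do not say. The averages deposited by the authors are a signal in normalised UMIs per nucleus. Each column sums to 2797 (proximal tubule) or 2008 (clusters), so the tables were scaled separately. Per the file headers, the log2 fold changes deposited by the authors set Cis9w against CT9w in the former and a cluster against the remaining nuclei in the latter. The deposited p-value of the authors was used as it stands, and a gene was called at a p under 0.05, in the clusters with a log2 fold change of at least 1 as well.

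UMI sums were recovered as whole multiples of 1 step per column, and at least 99.995% of genes came out whole within 0.1 UMI. The recovery was tested on simulated data. Because each group has 1 column, no count model and no test across samples could be run. Ratios carry 95% Clopper-Pearson intervals and averages exact Poisson intervals, both for counting error only. An average of 3 UMIs is 0.00164 in CT9w and 0.000981 in Cis9w, and 3 UMIs over the group stood in for 0 where a bound is given. Gene IDs of the proximal tubule table matched GENCODE M21 (GRCm38) for 21288 of 21312 genes, and 14 symbols stood for more than 1 ID, of which the first was used. Promoter windows came from RefSeq, and protein sequences were not analysed here. The work used Python 3.11.15, pandas 2.3.3, scipy 1.17.1 and matplotlib 3.10.9.

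The 32 genes, the roles and the other lists were chosen with earlier results of these data known. Values are given in full for members that passed the 0.05 threshold, for the 3 sensors and 3 factors whatever their values, and for the 5 highest and 5 lowest ratios. From the other lists come up to 3 called rises and 3 called falls, and from each cluster up to 3 called members. Other members are named to account for all 32.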

Additional observations from a re-analysis of the deposited data

How the results depend on the processing

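Of 177 values recomputed under other settings, 128 moved by less than their tolerance and 49 moved further. A reversal could be recorded only for the members' median, their summed ratio and the ratios of called members, and none was. Counts and shares had no such label. Each member ratio was multiplied by 1 constant per setting, so the small moves of these ratios say little. With a threshold of 0.01 on the p-value of the authors' deposited table, only Pdia4 and Hyou1 were higher, 2 members instead of 7, 1 pair of gene and cluster (Ddit3 in PT-S1) was higher instead of 4, and 0 lower instead of 1. Fam129a and Slc3a2, the rises of the other lists, were lost at that threshold. Immune cells led 6 members with at least 10 UMIs there, instead of 9. With a ratio of at least 1.5 and no p, 15 members were higher. The members' median of 0.64 (log2 fold changes of the authors' deposited table) became 0.60 with no floor, 0.69 with a floor at the 75th percentile (0.0826), 0.61 as a mean, 0.61 after subtracting the median of all genes, 0.66 after rescaling without mitochondrial and the 10 highest genes, and 0.53 with no floor and each count under 3 UMIs of Derl3 and Chac1 raised to 3, the last chosen after seeing the data. The rescaling shifted all log2 values by 0.02 and moved 2 of 30 member ratios across 1, Atf6 to 1.007 and Sdf2l1 to 1.012. The members' share of UMIs in Immune cells, 0.230%, became 0.176% without Hspa5 and the member of highest average and 0.250% after rescaling. Leaving members out can only lower such a share, and leaving other genes out of the total can only raise it. The cause of the other moves was not tested. No paired analysis was possible because the columns carry no replicate number, and for the same reason no replicate could be left out. With both groups held as pools, precision between animals is unknown.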
